A study of Caenorhabditis elegans with 51 samples.

Results

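The furrow collagens are 6 cuticle collagen genes of the nematode Caenorhabditis elegans. They are dpy-2 (WBGene00001064), dpy-3 (WBGene00001065), dpy-7 (WBGene00001069), dpy-8 (WBGene00001070), dpy-9 (WBGene00001071) and dpy-10 (WBGene00001072). They were chosen by name, not by their values, and all 6 were found by identifier among the 44200 genes of each gene table. In the RefSeq annotation (assembly WBcel235) dpy-2 and dpy-10 lie near each other on chromosome II, dpy-9 on chromosome IV, and dpy-3, dpy-7 and dpy-8 on chromosome X. The study asks how XRN2, a nuclear 5′-3′ exoribonuclease, acts in transcription termination, and lowered or altered it in several ways.

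All animals were labelled as the fourth larval stage (L4) and whole bodies were used. In the time course, wild type (WT, strain N2) and strain HW1660, which carries the temperature-sensitive allele xrn-2(xe31), grew for 59 h at 15 °C and were then moved to 26 °C. Animals were collected hourly from 0 to 10 h, and each collection gave 1 library. The RNA collected at 6 h and 10 h was sequenced a second time at greater depth, which gives more reads but no further samples. Strain HW2216 carries xrn-2(D234/236A)::gfp, a catalytic-dead transgene, together with xrn-2(xe31), and was compared with its own WT, at 6 h and at 10 h. N2 animals were fed bacteria for RNA interference (RNAi) against xrn-2, or mock (empty vector) bacteria, from L1 to mid-L4 at 20 °C. These gave 1 polyA-selected library of each kind in this series, and, after depletion of ribosomal RNA (rRNA), 1 mock and 2 xrn-2 RNAi libraries.

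The cuticle of the worm is a collagen coat made by the epidermis and replaced at each molt. Its surface bears circumferential furrows, and the products of these 6 genes are found in or needed for those furrows. Loss of any of them erases the furrows and leaves short, stout animals, the Dumpy phenotype that names the genes. Cuticle collagen genes are transcribed in a pulse in each larval cycle, with furrow collagens among the early ones. Loss of furrows is also known to raise osmotic, detoxification and antimicrobial genes in the epidermis.

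Libraries held 41238235 to 57832479 gene counts in the time course, 239213652 to 253142688 after resequencing, 49628394 to 74356542 in the catalytic-dead experiment, 21695913 to 23817072 after rRNA depletion, and 36463650 and 44605077 in the polyA RNAi pair. Markers of epidermis, germline, muscle and intestine (11 genes) had counts in all 35 libraries, so the RNA is that of whole animals, in which fewer cells of a type and less RNA per cell cannot be told apart. The xrn-2 transcript was higher in late xe31 libraries (log2 change 0.99 ± 0.07 SE, edgeR with Benjamini-Hochberg (BH) adjustment, adjusted p = 1.53e-06), and stood at 69.6 against 151.2 CPM (gene counts scaled to library size) in the polyA xrn-2 RNAi and mock libraries. After rRNA depletion it stood at 72.7 and 66.3 CPM against 79.4 in mock, in libraries labelled xrn-2 RNAi (log2 change -0.21 ± 0.30 SE, edgeR, BH-adjusted p = 0.915), so directions drawn from those rest on their labels. Nothing in the labels says which libraries came from separate cultures, and p-values measure the spread between these libraries, which may be technical.

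All 6 furrow collagens made a single sharp pulse at the start of the WT time course. Each was already high at 0 h, peaked at 1 h and then fell steeply until 5 h. Peak levels were 590 CPM for dpy-3 to 1006 CPM for dpy-8, where CPM are normalised by TMM (trimmed mean of M-values) within each table. Levels at 5 h were 4.93 CPM for dpy-3 to 10.9 CPM for dpy-8. The fall from 1 h to 5 h was 92.6-fold for dpy-8 to 138-fold for dpy-10.

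The full WT course of dpy-7, whose promoter is widely used to drive genes in the epidermis, was 494, 670, 406, 146, 28.7, 6.22, 4.70, 1.92, 1.34, 0.69 and 0.79 CPM from 0 to 10 h. In xe31 dpy-7 stood at 575, 611, 311, 61.1, 21.05, 11.8, 9.43, 4.26, 2.86, 1.58 and 0.65 CPM at the same hours. The xe31 libraries were higher at 0 h, lower from 1 to 4 h, higher from 5 to 9 h and lower again at 10 h. The level at 1 h was thus close in the strains. In xe31 dpy-7 dropped further than in WT between 2 and 3 h and less between 3 and 5 h, and from 5 h to 10 h it dropped 18.2-fold against 7.82-fold in WT.

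The other members traced nearly the same early course. WT dpy-2 stood at 510.1, 786, 473 and 147 CPM from 0 to 3 h, and in xe31 at 623, 749, 373 and 65.6 CPM. WT dpy-10, the gene whose edited alleles are a common co-conversion marker in worm genome editing, stood at 657, 801, 457 and 138 CPM, and in xe31 at 763, 762, 348 and 64.0 CPM. It was highest at 0 h in xe31, unlike the other 5 members, which peaked at 1 h in both strains. The 0 h and 1 h values of dpy-10 in xe31 differ by less than 2 CPM, so the order of those hours is not resolved by 1 library each.

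**Figure D1:**
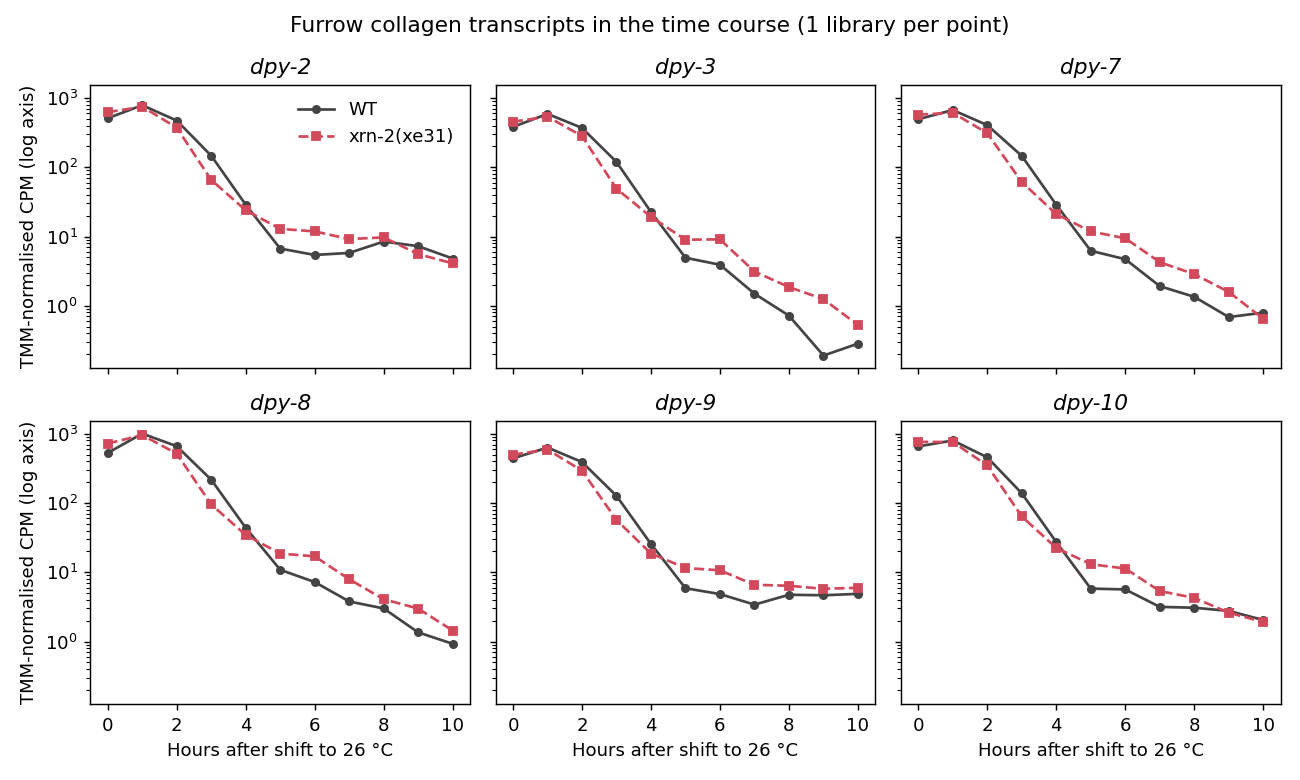
TMM-normalised CPM on a log axis against hours after the shift to 26 °C for each of the 6 genes, with WT as circles and solid lines and xrn-2(xe31) as squares and dashed lines, 1 library per point. WT levels peak at 1 h between 590 and 1006 CPM, and dpy-3, dpy-7 and dpy-8 keep falling after 5 h while dpy-2 and dpy-9 level off in WT.

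A smooth course over the hours (spline with 3 degrees of freedom) was called for 6 of 6 members in WT and for 6 of 6 in xe31 (edgeR quasi-likelihood test, BH-adjusted p of at most 4.10e-05 in WT and 1.18e-05 in xe31). Over all genes tested, 87.6% were called in WT and 86.8% in xe31, so passing this test sets the members apart from few genes. The difference in course between the strains was called for 0 of 6 members (adjusted p from 0.177 for dpy-7 to 0.784 for dpy-2), against 22.1% of all genes. In that same test without adjustment 0 of 6 had p under 0.05, and no other tool was run for it. With 4 degrees of freedom for the spline 1 of 6 was called.

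After 5 h the members parted from each other. Transcripts of dpy-3, dpy-7 and dpy-8, the X-linked members, kept falling in WT: from 5 h to 10 h dpy-3 dropped 17.4-fold, dpy-8 11.7-fold and dpy-7 7.82-fold. Those of dpy-10 dropped 2.84-fold. Those of dpy-2 and dpy-9 dropped 1.39-fold and 1.21-fold. WT dpy-2 went from 5.41 CPM at 6 h to 8.45 CPM at 8 h before reaching 4.81 CPM at 10 h, and WT dpy-9 stayed between 3.41 and 4.88 CPM from 6 to 10 h. These are single libraries per hour, and the difference among members was not tested.

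The resequenced WT libraries gave the same order of the members from 6 h to 10 h. There dpy-3 stood at 2.99 CPM at 6 h and 0.22 CPM at 10 h (712 and 52 counts), dpy-8 at 8.38 and 1.28 CPM and dpy-7 at 3.51 and 0.60 CPM. Levels were 4.82 and 1.83 CPM for dpy-10, 5.05 and 4.43 CPM for dpy-2 and 3.24 and 3.63 CPM for dpy-9. Since the resequenced RNA is that of the time course, this adds reads and not an independent sample.

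The separate WT pair of the catalytic-dead experiment showed another order. From 6 h to 10 h dpy-3 went from 1.44 to 0.093 CPM (99 and 4 counts), dpy-8 from 4.26 to 0.84 CPM and dpy-7 from 2.17 to 0.84 CPM. There dpy-2 also dropped, from 7.55 to 3.61 CPM, which is 2.09-fold beside 2.58-fold for dpy-7. Levels of dpy-9 were 3.51 and 4.57 CPM and those of dpy-10 3.99 and 4.78 CPM, so both were higher at 10 h. The levelling off of dpy-2 in the time course was thus not seen in this pair, and the drop of dpy-10 was not seen either.

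**Figure D2:**
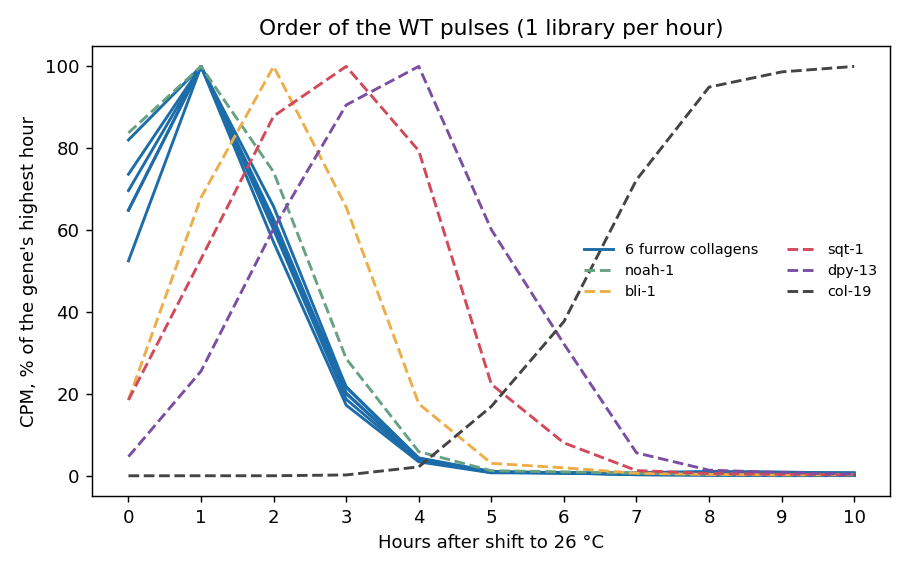
WT levels in percent of each gene's own highest hour against hours after the shift, 1 library per hour, with the 6 furrow collagens as solid lines and 5 other genes as dashed lines. The furrow collagens and noah-1 peak at 1 h, bli-1 at 2 h, sqt-1 at 3 h, dpy-13 at 4 h and col-19 at 10 h.

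Of the 13 other body-shape collagens with levels in the time course, 12 peaked later than the furrow collagens in WT. The exception was dpy-17, which peaked at 1 h at a low level (10.1 CPM), and dpy-14, highest at 5 h, never exceeded 0.60 CPM. The strut collagen bli-1 peaked at 2 h with 2122 CPM, the body-shape collagens sqt-1 and rol-6 at 3 h with 2164 and 985 CPM, and dpy-5 and dpy-13 at 4 h with 3220 and 4084 CPM. The molting gene mlt-10 peaked at 3 h (947 CPM). The adult collagen col-19 was at 0.21 CPM at 0 h and highest at 10 h with 2910 CPM. At 5 h, when dpy-7 was at 6.22 CPM, WT dpy-13 still stood at 2456 CPM.

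The genes whose course was most like that of the furrow collagens included 2 zona pellucida domain genes and 3 lipocalins. Likeness was the Pearson correlation of log2 CPM with the members' mean pattern over the 22 time-course libraries, which share the same hours, among 11281 genes whose mean log2 CPM reached 2. The closest was noah-1 (r = 0.998), a zona pellucida domain protein of the apical matrix, and its relative noah-2 ranked last of 10 (r = 0.994). The lipocalins lpr-6 (r = 0.997), lpr-5 (r = 0.995) and lpr-3 (r = 0.994), the ground-like gene grl-24 (r = 0.996), the hedgehog-related wrt-10 (r = 0.995), the cyclophilin cyn-6 (r = 0.995), sym-2 (r = 0.995) and F11E6.9 (r = 0.996) filled the other places. All 10 peaked at 1 h in WT. The members themselves had r of 0.982 (dpy-2 and dpy-9) to 0.998 (dpy-10) with the mean of the other 5. WT noah-1 went from 1750 CPM at 1 h to 21.7 CPM at 5 h, an 80.5-fold fall.

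The first comparison sets these transcripts in xe31 against those in WT hour by hour. At 0 h all 6 members were 1.13-fold to 1.37-fold higher in xe31. At 1 h all 6 were lower by 1.05-fold to 1.1-fold, and at 2 h by 1.27-fold to 1.34-fold. The gap was widest at 3 h, where xe31 was 2.16-fold (dpy-10) to 2.44-fold (dpy-3) lower, and narrowed to 1.18-fold to 1.37-fold at 4 h.

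From 5 h the sign was the opposite. All 6 members were 1.72-fold to 2.25-fold higher in xe31 at 5 h and 2.00-fold to 2.35-fold higher at 6 h. At 7 h they were 1.59-fold to 2.22-fold higher. At 8 h all 6 were still higher, by 1.15-fold (dpy-2) to 2.59-fold (dpy-3). At 9 h 4 of 6 were higher and at 10 h 3 of 6. The 6 members share each library, so their moving together at 1 hour counts as 1 observation of that pair of libraries.

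**Figure D3:**
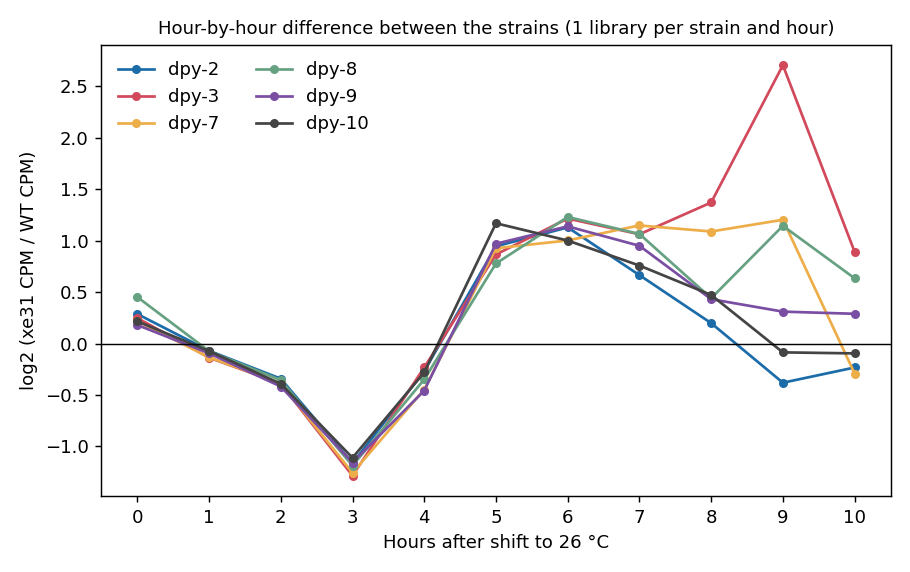
log2 ratio of xe31 to WT CPM against hours after the shift, 1 line per gene and 1 library per strain and hour, with the line at 0 marking equal levels. All 6 genes lie between -1.28 and -1.11 at 3 h and between 1.00 and 1.23 at 6 h, and they spread from -0.38 to 2.71 at 9 h.

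In the early window (0 to 2 h) 0 of 6 members passed the test of a strain effect with hour as a block, which treats hours as replicates of a window (edgeR, BH over 17123 genes). Members' log2 changes ran from -0.11 ± 0.27 SE for dpy-9 to 0.01 ± 0.26 SE for dpy-8, with adjusted p of at least 0.916. Of all genes 6.67% were called higher and 1.02% lower, 2117 were higher and 1002 lower at an unadjusted p under 0.05, and DESeq2 called 0 members. Of the members 0 of 6 had an unadjusted p under 0.05. The 95% interval for dpy-8 ran from -0.57 to 0.59, so a change inside those bounds was not detectable here. The early window joins hours of opposite sign, since the members were higher in xe31 at 0 h and lower at 1 h and 2 h. Without 2 h all 6 members had a log2 change above 0 (0.04 for dpy-7 to 0.19 for dpy-8).

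In the middle window (3 to 5 h) 0 of 6 passed as well, against 10.1% of genes called higher and 5.41% lower (edgeR, BH). Members' log2 changes were -0.18 ± 0.32 SE (dpy-10) to -0.36 ± 0.30 SE (dpy-7), and an unadjusted p under 0.05 was found for 0 of 6 members, 2845 higher genes and 2222 lower ones. DESeq2 called 0 members. The window joins hours of opposite sign. Without 3 h all 6 members had a log2 change above 0 (0.17 for dpy-7 to 0.37 for dpy-10), and without 5 h 4 of 6 were called lower.

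In the late window (6 to 10 h) the 3 X-linked members were called higher in xe31, which is 3 of 6, against 17.3% of genes called higher and 20.8% lower (edgeR, BH). The median log2 change was 0.80 over the 6 members and -0.03 over all 17123 genes. WT dpy-3 stood at 3.91, 1.49, 0.72, 0.19 and 0.28 CPM from 6 to 10 h and in xe31 at 9.08, 3.12, 1.86, 1.25 and 0.53 CPM. The xe31 library was higher in 5 of 5 hours, while the ranges of the strains overlap because each spans the fall over the hours. The log2 change of dpy-3 was 1.31 ± 0.34 SE (edgeR, BH-adjusted p = 0.0104).

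For dpy-8 the late WT levels were 7.23, 3.79, 3.00, 1.35 and 0.93 CPM and the xe31 levels 16.98, 7.93, 4.08, 3.00 and 1.44 CPM. Here too xe31 was higher in 5 of 5 hours, with a log2 change of 0.95 ± 0.27 SE (edgeR, BH-adjusted p = 0.0150). For dpy-7 xe31 was higher in 4 of 5 hours, with a log2 change of 0.96 ± 0.32 SE (edgeR, BH-adjusted p = 0.0324). These levels rest on few reads at the end of the course: dpy-3 had 10 counts in WT and 74 in xe31 at 9 h.

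The 3 members on other chromosomes were not called in the late window. WT dpy-9 stood at 4.84, 3.41, 4.73, 4.66 and 4.88 CPM and in xe31 at 10.7, 6.60, 6.39, 5.77 and 5.97 CPM, so that the ranges did not overlap. Its log2 change was 0.64 ± 0.25 SE (edgeR, BH-adjusted p = 0.0648). For dpy-10 it was 0.49 ± 0.29 SE (BH-adjusted p = 0.209) and for dpy-2 0.31 ± 0.28 SE (BH-adjusted p = 0.417), each higher in 3 of 5 hours. Whether the X-linked members differ from the others in this effect was not tested.

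The late calls depend on how hours are matched. When each xe31 library was set against WT 1 h earlier 0 of 6 were called, and the log2 changes were 0.51 for dpy-3, 0.27 for dpy-7 and 0.21 for dpy-8. Against WT 1 h later 4 of 6 were called, with 2.49, 1.83 and 1.74 for the same genes. With no hour block 0 of 6 were called, although the log2 changes were 1.26, 0.99 and 1.04, each with an SE of 0.75 to 0.87. Without 6 h 1 of 6 was called, dpy-3. The call of dpy-7 was also lost without 7 h, without 8 h and without 9 h (edgeR, BH-adjusted p = 0.0927, 0.0826 and 0.0761). Among the late-larval and adult stage markers 0 of 4 tested passed in the late window, against 17.3% of all genes called higher and 20.8% lower. In that window col-19 lay between 1096 and 2910 CPM in WT and between 1076 and 2787 CPM in xe31. In the middle window col-19 was called higher and mlt-10 lower in xe31. In xe31 dpy-5 and dpy-13 peaked at 3 h against 4 h in WT, and mlt-10 at 2 h against 3 h. The peak hours of bli-1, sqt-1 and rol-6 were the same in both strains. The part of timing in the furrow collagen result was not tested. In this design it cannot be told apart from an effect of XRN2.

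The change between windows was tested directly as late minus early. It was called for dpy-3 alone (1 of 6), with a log2 difference of 1.40 ± 0.43 SE (edgeR, BH-adjusted p = 0.0429), against 5.71% of genes called higher and 13.3% lower. The other 5 had log2 differences of 0.35 ± 0.41 SE (dpy-2) to 1.06 ± 0.42 SE (dpy-7), with adjusted p of 0.103 to 0.614. Leaving out any 1 hour of the early or late window ended the dpy-3 call.

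In the resequenced libraries the 6 h difference was read at far greater depth. WT dpy-8 had 1997 counts and xe31 4470 at 6 h, and all 6 members were 2.06-fold (dpy-7) to 2.32-fold (dpy-3) higher in xe31. At 10 h 4 of 6 were higher, from 1.91-fold for dpy-3 to 0.79-fold for dpy-2. With hour as a block 0 of 6 were called, as were 0% of 18213 genes (edgeR, BH; 1 residual degree of freedom), with log2 changes of 0.42 ± 0.39 SE (dpy-10) to 1.12 ± 0.23 SE (dpy-3, adjusted p = 0.283). At an unadjusted p under 0.05, 1581 genes were higher and 518 lower, and 2 of 6 members passed. DESeq2 called 2 members and 2570 genes.

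The catalytic-dead strain showed much larger differences, and they had the same direction in all 6 members at both hours. At 6 h the members stood at 90.0 to 181 CPM against 1.44 to 7.55 CPM in WT, which is 23.4-fold (dpy-2) to 68.8-fold (dpy-7) higher. At 10 h they stood at 28.8 to 57.1 CPM against 0.093 to 4.78 CPM, 10.5-fold (dpy-9) to 309-fold (dpy-3) higher, where WT dpy-3 rests on 4 counts. No member's WT and mutant libraries overlapped.

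Of the 6 members 4 were called higher, against 0.697% of genes called higher and 0.465% lower of 17212 tested (edgeR, BH, hour as a block, 1 residual degree of freedom). The median log2 change was 4.81 over the members and 0.09 over all genes. The log2 changes were 5.99 ± 0.41 SE for dpy-7 (BH-adjusted p = 0.0370), 5.07 ± 0.43 SE for dpy-8 (0.0454), 4.30 ± 0.38 SE for dpy-2 (0.0454) and 6.92 ± 0.81 SE for dpy-3 (0.0490). For dpy-9 (4.42 ± 0.66 SE) and dpy-10 (4.54 ± 0.66 SE) the adjusted p was 0.0537. With DESeq2 size factors, with no filter, with no hour block or with DESeq2 itself 6 of 6 were called, and without WT at 10 h (and no block) 0 of 6.

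The levels in the catalytic-dead libraries lay within the falling side of the WT time course. Those at 6 h fell between the WT levels of 2 h and 4 h, and those at 10 h between the WT levels of 3 h and 5 h. Hours before 0 h were not sampled, so the rising side cannot be compared. The tables were normalised separately, which limits how exactly levels can be set side by side.

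Stage markers also differed between the strains in these libraries. The adult collagen col-19 stood at 1.99 and 6.13 CPM in the catalytic-dead libraries and at 2121 and 2910 CPM in their WT. The yolk protein genes vit-2 and vit-6 stood at 10.5 and 21.2, and at 7.25 and 12.9 CPM, against 6615 and 15512, and 7632 and 17762 CPM. Of 4 stage markers tested 3 were called lower (col-19, vit-2 and vit-6), against 0.465% of all genes called lower (edgeR, BH). Levels of mlt-10 stood at 62.1 and 51.5 CPM against 5.80 and 3.45 CPM. In the WT time course col-19 was still at 6.06 CPM at 3 h and vit-2 at 10.95 CPM. A difference in developmental stage at collection and an effect of XRN2 on these genes cannot be told apart in this design.

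The WT of this experiment also differed from that of the time course at the same labelled hour. At 6 h its dpy-3 level was 1.44 CPM against 3.91 CPM in the time course, dpy-13 was 79.1 against 1316 CPM and col-19 was 2121 against 1096 CPM. These values of dpy-3 and col-19 are close to those of the time-course WT at 7 h (1.49 and 2104 CPM). Not every gene followed this: dpy-2 stood at 7.55 CPM at 6 h, above the 5.41 CPM at 6 h and 5.79 CPM at 7 h of the time course. At 10 h dpy-10 stood at 4.78 CPM against 2.04 CPM in the time course.

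The difference between the catalytic-dead effect and the resequenced xe31 effect, each against its own WT, was 3.77 ± 0.86 (dpy-9) to 5.78 ± 0.84 (dpy-3) on the log2 scale (± SE). It was called for 0 of 6 members (edgeR, BH-adjusted p from 0.0559 for dpy-7 to 0.145 for dpy-9; 2 residual degrees of freedom), against 0.0634% of genes called in either direction. Without adjustment all 6 had p under 0.05, as had 2149 genes above 0 and 1851 below, and with no filter on low counts 1 of 6 was called. No DESeq2 fit was run for this difference.

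In the polyA pair all 6 members had far more counts after xrn-2 RNAi than in mock. The pair has 1 library per treatment and therefore no test. The log2 ratios here use library totals, while TMM-normalised CPM gave 69.0-fold (dpy-10) to 137.5-fold (dpy-7). Counts of dpy-7 were 12533 in xrn-2 RNAi and 57 in mock, a log2 ratio of 7.46 (exact 95% interval 7.12 to 7.89, counting error only). Counts of dpy-10 were 14356 and 130 (log2 ratio 6.49, interval 6.25 to 6.76), the smallest ratio of the members. The others were 14256 and 87 for dpy-2 (7.05), 5685 and 29 for dpy-3 (7.28), 13948 and 115 for dpy-8 (6.62), and 11468 and 74 for dpy-9 (6.97). All 6 ranked between 39 and 123 from the top among 13970 genes with at least 100 counts, of which 3.74% had a log2 ratio above 4.

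After rRNA depletion, in the libraries labelled xrn-2 RNAi, all 6 members were higher than in mock, but the 2 libraries differed widely. For dpy-2 mock stood at 1.07 CPM and the 2 libraries at 9.69 and 73.2 CPM. Library 1 was 3.41-fold (dpy-10) to 9.04-fold (dpy-2) above mock and library 2 was 22.3-fold to 68.3-fold above it. The edgeR fit called 0 of 6 members and 0% of 15917 genes, with log2 changes of 3.66 ± 1.31 SE (dpy-10) to 5.25 ± 1.54 SE (dpy-2) and BH-adjusted p of 0.205 to 0.301. At an unadjusted p under 0.05 all 6 members passed, with 1487 genes higher and 847 lower, and DESeq2 called 6 members and 1080 genes.

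**Figure D4:**
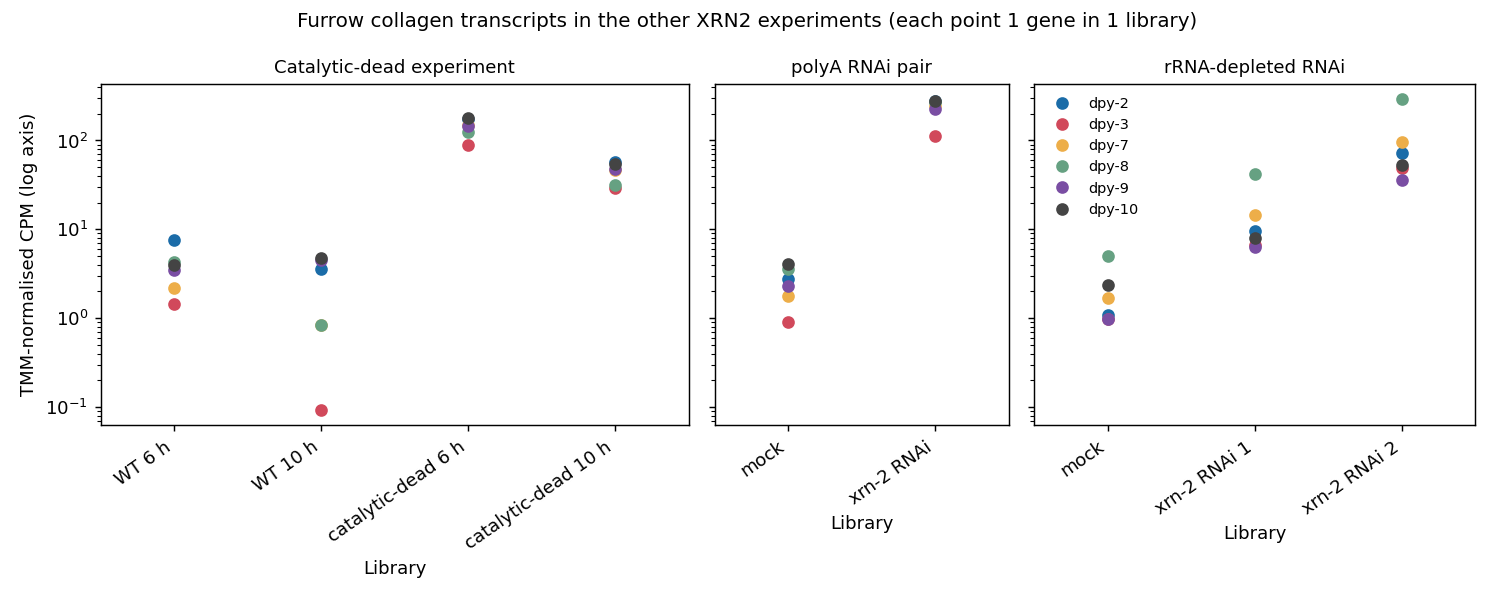
TMM-normalised CPM on a log axis for the 6 genes (colours) in each library of the catalytic-dead, polyA RNAi and rRNA-depleted RNAi experiments, 1 point per gene and library. All points of catalytic-dead and xrn-2 RNAi libraries lie above the same gene's control points, and the 2 rRNA-depleted RNAi libraries stand apart from each other.

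Stage markers moved in the RNAi libraries as well. In the polyA pair col-19 stood at 1.41 CPM in xrn-2 RNAi and 2659 CPM in mock, and mlt-10 at 183 and 10.1 CPM. After rRNA depletion col-19 stood at 168 and 25.5 CPM in the libraries labelled xrn-2 RNAi and at 1926 CPM in mock. The library with the higher furrow collagen levels is thus the one with the lower col-19. The part of stage in the furrow collagen levels was not tested and, with these groups, cannot be told apart from the RNAi.

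Among the other body-shape collagens, which build the same cuticle, 7 of 13 tested (14 listed) were called higher and 0 lower in the late xe31 window, with a median log2 change of 0.67, against 17.3% of all genes called higher and 20.8% lower. These were dpy-14, dpy-17, bli-1, sqt-1, sqt-2, bli-2 and rol-8. The strongest was dpy-14, at 0.42 to 0.28 CPM from 6 to 10 h in WT and 4.75 to 15.2 CPM in xe31 (log2 change 4.61 ± 0.35 SE, edgeR, BH-adjusted p = 3.83e-06). Late bli-1 went from 41.5 to 5.26 CPM in WT and from 73.7 to 34.95 CPM in xe31 (log2 change 2.19 ± 0.33 SE, BH-adjusted p = 0.000381). For dpy-17 the log2 change was 1.74 ± 0.19 SE and for sqt-1 0.81 ± 0.21 SE (BH-adjusted p = 4.86e-05 and 0.0105). In the middle window 1 of 13 was called higher, dpy-14, and 3 were called lower, bli-2, rol-8 and lon-3 (log2 changes -0.88, -0.995 and -0.88, edgeR with BH), with a list median of -0.70, against 10.1% of all genes higher and 5.41% lower. In the catalytic-dead strain 4 of 13 were called higher, bli-1, sqt-3, dpy-14 and rol-8, with a list median of 4.93, against 0.697% of all genes.

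Of the genes that modify and process collagen 2 of 13 were called higher and 1 lower in the late window, with a list median of -0.09. Of all genes 17.3% were higher and 20.8% lower, so these counts are near or below the background. Those higher were pdi-2, the disulfide isomerase that is also a prolyl hydroxylase subunit (log2 change 0.15 ± 0.05 SE, edgeR, BH-adjusted p = 0.0394), and the prolyl hydroxylase phy-4 (1.62 ± 0.29 SE, 0.00125). The one lower was bli-3, a dual oxidase that crosslinks cuticle proteins (-0.36 ± 0.07 SE, 0.00270). In the middle window 1 of 13 was higher, phy-3, and 4 were lower, pdi-2, phy-2, dpy-11 and let-268, with a median of -0.05. Of all genes 10.1% were called higher and 5.41% lower in that window. In the catalytic-dead strain 0 of 13 were called, with a median of 0.03, against 0.697% of all genes higher and 0.465% lower.

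Of the 11 genes known to rise when furrow collagens are lost, 1 was called higher in the late window, the antimicrobial peptide gene cnc-4 (log2 change 0.61 ± 0.16 SE, edgeR, BH-adjusted p = 0.0115). That is fewer than the 17.3% of all genes called higher, and the list median was -0.16. In the middle window 0 of 11 were called. In the catalytic-dead strain 0 of 11 were called, with a median of 1.00, against 0.697% of all genes higher and 0.465% lower. Among 10 epidermal and molting-cycle regulators 2 were called higher in the late window, the nuclear receptor nhr-23 (0.11 ± 0.04 SE, 0.0412) and the zinc-finger gene blmp-1 (0.27 ± 0.09 SE, 0.0254), a share close to the 17.3% of all genes. In the middle window 2 of 10 were called higher, nhr-23 and elt-1, and 3 lower, blmp-1, lin-42 and myrf-1, against 10.1% and 5.41% of all genes. In the catalytic-dead strain 1 of 10 was called higher, lin-42, the worm Period homolog (3.44 ± 0.39 SE, 0.0471), against 0.697% of all genes. WT lin-42 peaked at 3 h with 393 CPM.

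Reads past the gene ends were counted by the authors in a window downstream of each gene, of a length that the sources used here do not give. Summed over 6 to 10 h, dpy-8 had 7 downstream counts for 932 gene counts in WT and 38 for 1963 in xe31, or 0.75 (exact 95% interval 0.30 to 1.55) and 1.94 (1.37 to 2.67) per 100 gene counts. For dpy-10 the values were 3.94 (2.75 to 5.47) in WT and 3.20 (2.35 to 4.27) in xe31. WT downstream counts of dpy-10 did not follow its gene counts, with 8 for 27635 gene counts at 0 h and 10 for 167 at 8 h. Its ratio thus depends on the gene level, and no lack of change is read from its late ratios. The ratio of downstream to gene counts was tested for 4 members, dpy-2, dpy-8, dpy-9 and dpy-10, which passed the filter on low counts. Of these 4, 0 were called, against 42.3% of genes called higher and 1.6% lower (edgeR, BH). However, dpy-8 and dpy-9 reached the minimum of downstream counts only through the xe31 libraries. No conclusion is therefore drawn from their ratios or from a count over the 4 members. The log2 change was 0.59 ± 0.61 SE for dpy-2 and -0.12 ± 0.62 SE for dpy-10, beside a median of 1.08 over 11263 genes. For dpy-8 it was 1.52 ± 0.96 SE and for dpy-9 1.14 ± 0.88 SE, which are not set against that median. Without adjustment 4767 becomes 5362 genes higher and 180 becomes 277 lower, and 0 of the 4 members passed. DESeq2 was not run on ratios. Over 0 to 2 h, with far more gene counts, dpy-8 had 0.0023 (0.0003 to 0.0083) in WT and 0.057 (0.043 to 0.075) in xe31. Values were 0.0034 and 0.024 for dpy-9, and 0.057 and 0.099 for dpy-2. For dpy-3, dpy-7 and dpy-10 they were 0.0019 and 0.013, 0.0048 and 0.0078, and 0.020 and 0.041, with overlapping intervals. Ratios at 0 to 2 h were not tested.

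**Figure D5:**
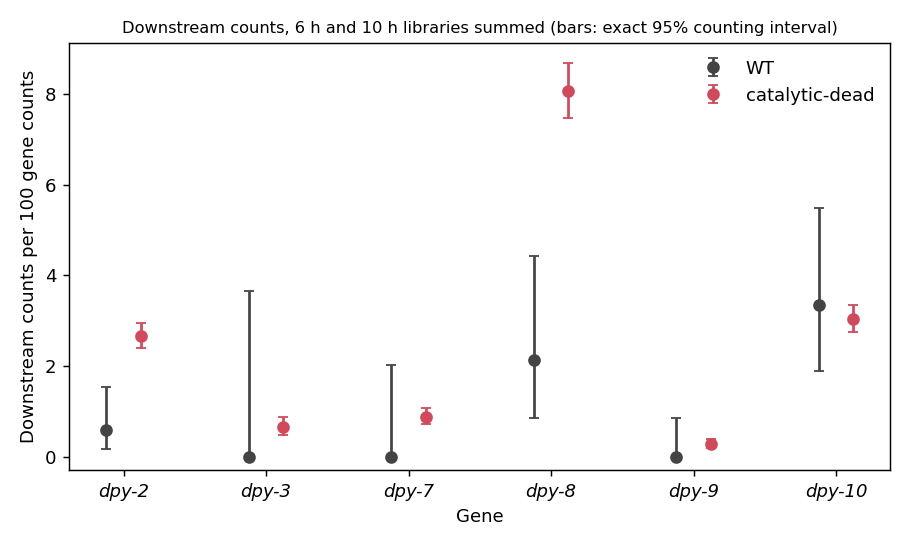
Downstream counts per 100 gene counts for each gene in the catalytic-dead experiment, with the 6 h and 10 h libraries summed, WT in grey and the catalytic-dead strain in red; bars are exact 95% intervals that cover counting error only. The dpy-8 value is 2.13 in WT and 8.06 in the catalytic-dead strain, and that of dpy-10 is 3.34 and 3.03. For dpy-10 these rest on 479 gene counts in WT and 14132 in the mutant, and its WT ratio depends on the gene level.

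In each catalytic-dead library every member had more gene counts than in any late time-course library. Downstream counts of dpy-8 were 464 and 285 at 6 h and 10 h, for 7440 and 1855 gene counts, against 7 and 0 in WT for 293 and 36. Per 100 gene counts this is 6.24 (exact 95% interval 5.67 to 6.85) and 15.4 (13.5 to 17.4) in the mutant. For dpy-2 downstream counts were 249 and 123 against 3 and 1 in WT, or 2.65 (2.39 to 2.94) against 0.59 (0.16 to 1.53) per 100 gene counts over both hours. For dpy-7 they were 70 and 34 against 0 and 0.

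For dpy-3, dpy-7 and dpy-9 the WT windows held 0 counts, which allows up to 3.65, 2.01 and 0.85 per 100 gene counts (exact 95% bounds). These bounds all lie above the 0.66, 0.88 and 0.28 of the mutant. No difference was therefore detectable within this experiment, and no fold is given. In the time-course WT at 0 to 2 h, where gene counts were far higher, the values were 0.0019, 0.0048 and 0.0034. Those are other hours of another experiment, and a difference from them was not tested. All 6 members reached the minimum of 20 downstream counts only through the mutant libraries, so no count or median over the members is read from this test.

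Tested as a ratio to gene counts, dpy-2 was called (log2 change 2.20 ± 0.64 SE, edgeR, BH-adjusted p = 0.0336), where WT rests on 4 downstream counts. Because the members entered this test only through the mutant libraries, no conclusion is drawn from the calls of single members. The ratios of dpy-8 (2.28 ± 0.88 SE, adjusted p = 0.0764) and dpy-10 (0.11 ± 0.58 SE, adjusted p = 0.896) were not called. For dpy-10 the WT ratio depends on the gene level, as in the time course, so no lack of change is read from it. Over all genes 49% were called higher and 2.34% lower. With hour as a block on the ratio the dpy-2 call was lost (adjusted p = 0.0582). This test was added after values had been seen, and an snRNA gene next to dpy-2 (T14B4.10) may share its window.

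Some windows of the members hold reads that may belong to neighbours. In the rRNA-depleted mock library dpy-2 had 279 downstream counts for 21 gene counts and dpy-7 had 154 for 33. In RefSeq T14B4.10 is the next gene on one side of dpy-2 and glb-16 on one side of dpy-7. The strand used in counting is not given, so such reads could not be assigned, and no change of downstream reads is drawn from those libraries. RefSeq also places T14B4.19 over dpy-10 and C31H2.14 over dpy-8, whose reads could not be told apart from those of the collagens. The upstream window of dpy-3 held 159 counts at 2 h and 13 at 0 h in WT, for 14327 and 16093 gene counts, and 149 and 11 in xe31. That of dpy-2 held 1 count in WT and 33 in xe31 over 6 to 10 h, and 0 and 99 in the resequenced libraries, 97 of them at 10 h. That of dpy-9 held 3 and 9 counts over 6 to 10 h and 6 and 63 after resequencing. Differences in upstream counts were not tested.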

How the data were processed

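RNA counts were analysed for 35 libraries. The 16 chromatin samples were not analysed here. The authors deposited read counts as whole numbers, per the file headers: counts per gene and counts in a downstream and an upstream window; the submitters' processing notes name build ce10. The sources used here name no aligner, counter, strand setting or window length. Reads shared by near-identical or overlapping genes could not be separated. The polyA tables also hold 12 columns of another series, which were not used. Column names gave the strain and hour of each library.

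Gene counts were tested with edgeR 4.0.16 in R 4.3.3 (quasi-likelihood test, TMM, filterByExpr at a minimum count of 10, Benjamini-Hochberg threshold 0.05 over all genes tested), all 22 time-course libraries in one fit with 8 residual degrees of freedom. SE is the log2 change divided by the square root of F. Catalytic-dead, resequenced and rRNA-depleted fits had 1 residual degree of freedom. PolyA ratios used library totals without TMM factors and pseudocount 1. The log2 bound of 4 was set after values were seen. Readthrough was tested as downstream against gene counts in 1 model, for genes that reached 20 downstream counts in all and a mean of 10 gene counts. The fits recovered most known changes when tested on simulated data. Intervals cover counting error only, since reads without molecular identifiers are not independent molecules.

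The members, lists and tests were chosen with earlier results of these data known. The text names the 6 members, xrn-2, the 10 most alike genes, neighbours, and up to 4 called genes per list by smallest late p. bli-2 and rol-8, the genes called in the middle window or the catalytic-dead strain, the genes shown for pulse order and the stage markers were named after values were seen. Symbols came from the gene name table; the cell type markers served only to show the tissues in the RNA. Promoter motifs planned for these genes were not searched here.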

Additional observations from a re-analysis of the deposited data

Results flagged for a closer look

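The strain effect on dpy-3 differed between the late and the early window of the time course. The log2 difference was 1.40 ± 0.43 SE (edgeR with Benjamini-Hochberg adjustment, adjusted p = 0.0429), with xe31 higher in 5 of 5 late hours and in 1 of 3 early hours. The call was lost when any 1 hour of those windows was left out. At 9 h, the hour with the widest gap, dpy-3 had 10 counts in WT and 74 in xe31. Groups of 4 to 10 samples for a search of outlying libraries do not occur in these experiments, since each strain, hour and treatment has 1 or 2 libraries.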

How the results depend on the processing

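Over 495 recomputed values of single members, 391 kept their direction and their side of the threshold, 26 lost a call, 36 gained one, 11 moved by more than their error and 31 changed sign; the cause of these changes was not tested. The WT and xe31 hour courses stayed called for all 6 members under each alternative run. With no hour block, 0 members were called higher in the late window and 0 in the late-minus-early difference, and genes called went to 10 early (1316 as reported), 56 middle (2659), 2095 late (6530) and 286 for the difference (3251). With xe31 set against WT 1 h earlier, 6 members were called lower in the middle window and 0 higher in the late window or the difference, 2058, 4162 and 3836 genes were called in the early, middle and late windows, and early dpy-8 was -0.055. With xe31 set against WT 1 h later, 6 members were called higher in the middle window (log2 1.42 dpy-2, 1.41 dpy-3, 1.38 dpy-7, 1.38 dpy-8, 1.35 dpy-9, 1.45 dpy-10; 456 genes called) and 3 in the difference, where dpy-2 was -0.11. Early values were then 0.56 dpy-2, 0.47 dpy-3, 0.49 dpy-7, 0.49 dpy-9 and 0.67 dpy-10.

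Leaving out 1 hour at a time gave 1 to 3 members called higher in the late window, 0 to 4 lower in the middle window and 0 to 0 higher in the difference. Genes called ranged from 611 to 1158 early, 851 to 2268 middle and 1492 to 4195 for the difference. Early log2 changes ranged from -0.20 to 0.11 (dpy-2), -0.26 to 0.055 (dpy-3), -0.26 to 0.041 (dpy-7), -0.21 to 0.19 (dpy-8), -0.26 to 0.042 (dpy-9) and -0.23 to 0.071 (dpy-10), and middle ones from -0.74 to 0.28 (dpy-2), -0.79 to 0.24 (dpy-3), -0.87 to 0.17 (dpy-7), -0.78 to 0.18 (dpy-8), -0.83 to 0.18 (dpy-9) and -0.72 to 0.37 (dpy-10). The late downstream ratio of dpy-10 ranged from -0.39 to 0.13; with upstream counts as reference 748 genes were called (4947 as reported). With a 4-df spline the interaction was called for 1 member.

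In the resequenced libraries DESeq2 called 2 members and 2570 genes, and no filter 155 genes; leaving out 1 library, with no hour block, gave log2 ranges of -0.40 to 1.23 (dpy-2), -1.92 to 4.12 (dpy-3), -1.61 to 2.78 (dpy-7), -1.50 to 2.99 (dpy-8) and -1.15 to 1.72 (dpy-10), where a lone library of 1 hour is set against both hours. In the catalytic-dead experiment 200 genes were called as reported, 1339 with DESeq2 size factors, 1222 with no filter, 2490 with no hour block and 3760 with DESeq2; leaving out 1 library with no block gave 0 to 2661 genes and 0 to 6 members, the lowest without WT at 10 h, and a lone library was taken to vary like the others. The catalytic-dead minus xe31 difference had 1 member and 63 genes called with no filter. DESeq2 called 6 members and 1080 genes after rRNA depletion. In the polyA pair 5 of 12 ratios recomputed with pseudocount 5 or TMM factors moved outside the counting interval. With hour as a block on the ratio 0 members were called in the catalytic-dead downstream test. No paired analysis was possible by replicate number because the labels of the RNA groups compared share at most 1 replicate number, and those of the time courses give hours; the reported fits pair the strains by hour. Depth limits dpy-3 most, with 4 to 99 counts in the WT of the catalytic-dead experiment.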
